A study of Homo sapiens with 8 samples.

Results

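The integrated stress response and the unfolded protein response were followed through 10 genes, DDIT3, TRIB3, ATF5, ERN1, ASNS, SESN2, VLDLR, AARS1, CREBRF and ERO1B, on 8 Affymetrix arrays of human cell lines from T cell acute lymphoblastic leukaemia, T-ALL. The members were taken by gene symbol: each of the 10 has 1 probe set, among 14884 genes with a named probe set, and all 10 passed the filter on dim genes. They were chosen by measured log2 values of these arrays, and the difference between transduced and untransduced cells is counted as used in that choice, so their differences are given as a description and not as a test. Tests are given for 72 other genes of the same pathways, which belong to lists written by function. Those lists were also chosen with earlier results of these data known, so their tests and shares are not free of that choice.

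The study used 2 established lines, CCRF-CEM and HPB-ALL, each with 4 arrays: cells with a scramble short hairpin RNA (shRNA), cells with the TOX hairpin shTOX-1, cells with the TOX hairpin shTOX-2, and untransduced cells. The scramble and shTOX cells share spinoculation with virus, puromycin selection and a wait of at least 2 weeks; the untransduced cells carry no hairpin, and no selection is recorded for them. TOX encodes a nuclear HMG-box protein of thymocyte development, and lowering it is the purpose of the hairpins. There is 1 array per line and construct. The labels do not say whether the arrays came from separate cultures, so p-values and errors reflect the spread among the arrays alone, which may be technical.

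The integrated stress response begins with kinases that phosphorylate the translation factor eIF2, after which most translation falls while that of the transcription factor ATF4 rises. ATF4 and its partner CHOP, encoded by DDIT3, then switch on genes for amino acid supply, tRNA charging and feedback control. The unfolded protein response starts in the endoplasmic reticulum (ER) from the sensors IRE1 (encoded by ERN1), PERK (EIF2AK3) and ATF6, and PERK is also an eIF2 kinase, so the pathways meet. In T cells and T cell leukaemia these responses are known for adapting cells to shortage of amino acids and to the load of protein folding.

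The promoters of the members were searched because ATF4 acts through a C/EBP-ATF composite element and ATF6 and XBP1 through ER stress elements. RefSeq promoter windows (build GRCh38.p14, 250 bases before to 50 after a start) were found for 10 of 10 members, 16 windows in all. The motif TGATGNAA, searched on both strands, was present in windows of 2 members, ASNS and AARS1, and in 3.62% of all 35116 windows. The ER stress element, a split motif bound by ATF6 with NF-Y and searched by its consensus on both strands, was present in a window of 1 member, ERO1B, and in 0.0769% of all windows. TGACGTCA, the cAMP response element, and TGACGTGG, an XBP1 and ATF6 element, had 0 matches among the members, against 1.85% and 0.729% of all windows. These motifs do not overlap one another in the members. The stretches that hold a match are shown in the direction of transcription, with the match in capitals. All 3 genes lie on the minus strand, in ASNS at chr7:97872409-97872536, in AARS1 at chr16:70289626-70289753 and in ERO1B at chr1:236282123-236282208. The ASNS match begins 68 bases before the start and reads in the sense of the gene, whereas those of AARS1 and ERO1B begin 187 and 243 bases before it and lie on the opposite strand, so the reverse complement of the motif stands in capitals.
ASNS: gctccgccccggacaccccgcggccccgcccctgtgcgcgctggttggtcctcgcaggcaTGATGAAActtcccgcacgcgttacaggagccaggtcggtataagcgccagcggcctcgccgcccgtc
AARS1: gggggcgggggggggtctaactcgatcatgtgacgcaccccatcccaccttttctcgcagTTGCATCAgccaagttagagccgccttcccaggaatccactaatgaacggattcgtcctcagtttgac
ERO1B: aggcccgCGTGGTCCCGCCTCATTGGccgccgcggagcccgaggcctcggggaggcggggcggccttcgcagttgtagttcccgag

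The deposited values are log2 intensities with array medians between 4.62 and 4.71, and genes with a mean of at least 5.18 (the 40th percentile of gene means) were tested, 8930 in all. TOX was lower in each shTOX array than in the scramble array of its line, at 77.0% and 44.6% of scramble in CCRF-CEM (first shTOX-1, then shTOX-2) and 74.2% and 28.0% in HPB-ALL; for shTOX against scramble and untransduced arrays together (-0.96 on the log2 scale), a two-sided exact permutation test that moves labels within lines gave p = 0.0556, which is the lowest value that 36 assignments allow. The untransduced arrays stood apart: 3.07% of tested genes in CCRF-CEM and 1.99% in HPB-ALL lay at least 1 from scramble on the log2 scale, against 0.84% to 1.55% in the shTOX arrays. Each line has a single untransduced array, so the untransduced state and that array cannot be told apart. In bulk RNA, fewer cells of a type and less RNA per cell cannot be told apart either. Of 8 T cell markers, 5 were measured under their symbol, with LCK at 7.11 to 9.98 and CD7 at 8.21 to 10.26, and CD2 at 4.04 to 5.97. CD7 was higher in untransduced cells than in the transduced mean (transduced minus untransduced -0.68 ± 0.19, limma adjusted p = 0.0467). CD5 (-0.47), LCK (-0.28) and CD247 (-0.40) did not pass. For CD7, in the order scramble, shTOX-1, shTOX-2 and untransduced, levels were 9.77, 9.55, 9.46 and 10.26 in CCRF-CEM. In HPB-ALL they were 9.46, 8.77, 8.21 and 9.52. Against scramble alone, shTOX was at -0.62 ± 0.20 for CD7 and -0.70 ± 0.23 for CD5. It was at -0.37 ± 0.16 for LCK and -0.15 ± 0.25 for CD247, and none of these passed in limma. The part of T cell marker levels in the results was not tested. CCRF-CEM minus HPB-ALL was 2.50 for CD247, 2.40 for LCK, 2.26 for CD5 and 0.77 for CD7. Among markers of other cell types, CD14 (3.46 to 3.77), CSF1R (4.39 to 4.97) and LUM (3.13 to 3.33) lay below the filter level on every array. KRT8 (5.57 to 6.57) and KRT18 (6.95 to 7.94) lay above it on every array. The tested PAX5, KRT8 and KRT18 did not pass between transduced and untransduced cells.

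DDIT3, TRIB3, ATF5, ERN1, CREBRF and ERO1B stood higher in untransduced cells than in all 3 transduced arrays in both lines. ERN1 had the largest mean difference, 5.38-fold, and ERO1B the smallest, 2.08-fold. ASNS, SESN2, VLDLR and AARS1 stood 1.70-fold (AARS1) to 3.06-fold (VLDLR) higher in untransduced CCRF-CEM cells. In HPB-ALL the untransduced array was lower for ASNS and VLDLR, within the transduced arrays for SESN2, and above them by 0.08 on the log2 scale for AARS1. This division was made after the values were seen. The plot of levels by array shows both patterns.

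**Figure D1:**
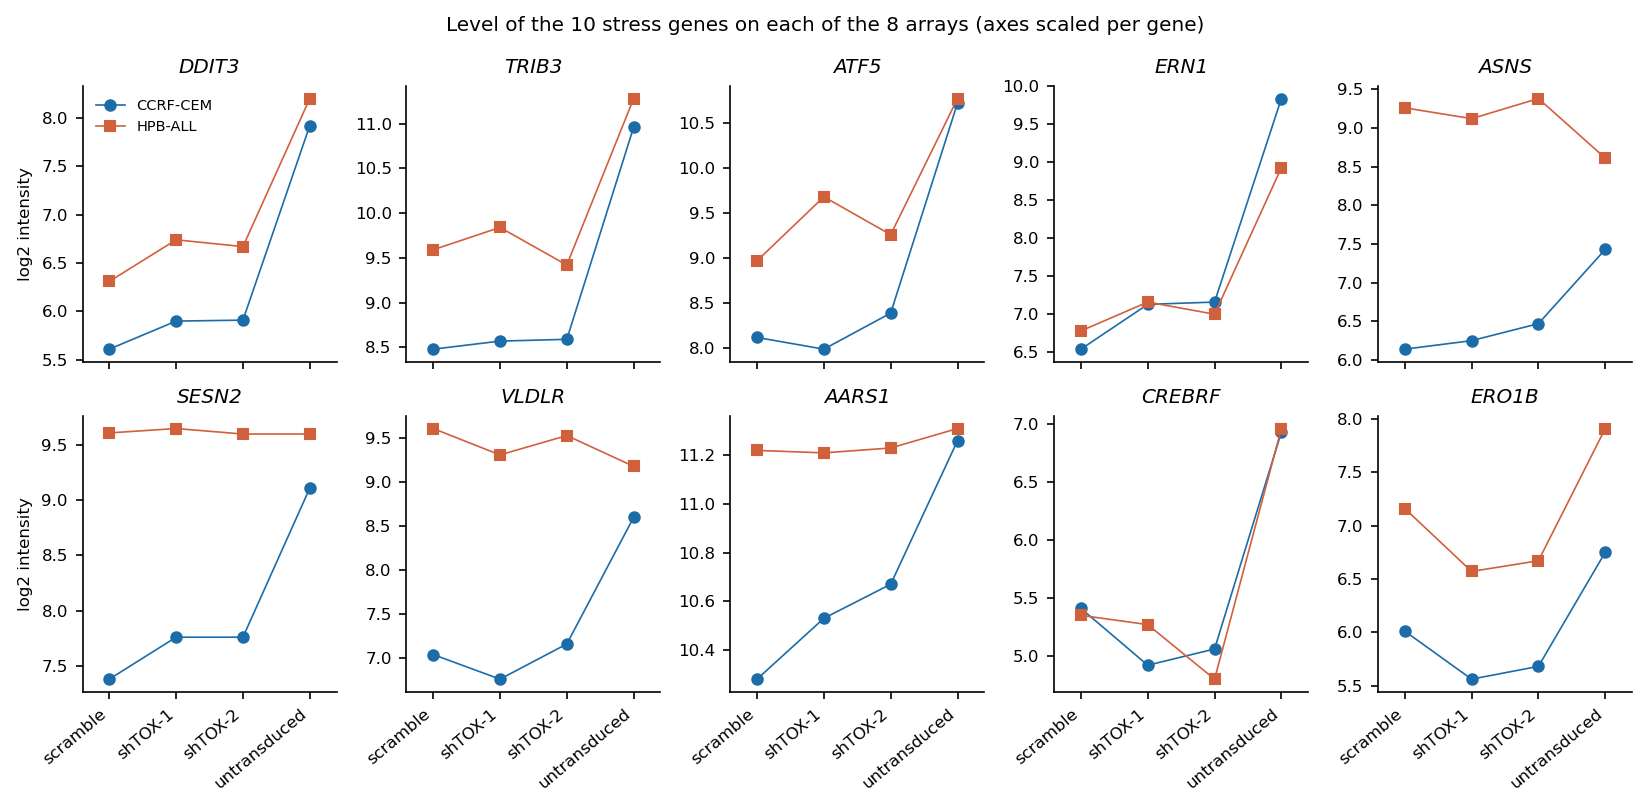
Log2 intensity (vertical axis, scaled per gene) of the 10 genes on the scramble, shTOX-1, shTOX-2 and untransduced arrays of CCRF-CEM (circles) and HPB-ALL (squares), 1 array per point; lines only join the arrays of a cell line. DDIT3, TRIB3, ATF5, ERN1, CREBRF and ERO1B peak in the untransduced array of both lines, for example DDIT3 at 7.92 and 8.20, whereas ASNS falls from 9.26 with scramble to 8.61 in untransduced HPB-ALL cells.

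Of the ER sensors, ERN1 encodes IRE1, a kinase and ribonuclease that splices XBP1 mRNA. In the order scramble, shTOX-1, shTOX-2 and untransduced, its log2 level was 6.54, 7.13, 7.16 and 9.84 for CCRF-CEM and 6.78, 7.16, 7.0 and 8.93 for HPB-ALL. The untransduced arrays lay 2.68 and 1.77 above the highest transduced array of their line, so the groups did not overlap. Transduced minus untransduced, averaged over the lines, was -2.43 ± 0.20 (SE, 6 against 2 arrays), and untransduced cells were 7.45-fold higher in CCRF-CEM and 3.88-fold higher in HPB-ALL.

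The transcription factors among the members are DDIT3, ATF5 and CREBRF. DDIT3, which encodes the pro-apoptotic factor CHOP, stood at 5.61, 5.90, 5.91 and 7.92 in CCRF-CEM, in the order scramble, shTOX-1, shTOX-2 and untransduced, and at 6.31, 6.74, 6.67 and 8.20 in HPB-ALL. Untransduced cells were the high samples in both lines, 4.33-fold and 3.08-fold above the transduced mean (-1.87 ± 0.14 for transduced minus untransduced). ATF5, a relative of ATF4 that is itself translated under eIF2 phosphorylation, stood at 8.12, 7.99, 8.39 and 10.72 in CCRF-CEM and at 8.97, 9.68, 9.26 and 10.77 in HPB-ALL. The lines differed in the transduced arrays and nearly met in the untransduced ones, so the fold was larger in CCRF-CEM (5.86) than in HPB-ALL (2.76); the mean difference was -2.01 ± 0.24. CREBRF, which promotes the degradation of the ER stress factor CREB3, stood at 5.41, 4.92, 5.06 and 6.93 in CCRF-CEM and at 5.35, 5.27, 4.8 and 6.96 in HPB-ALL. Both lines gave nearly the same levels, and the mean difference was -1.81 ± 0.15. Of the 6 transduced arrays, 3 with a TOX hairpin lay below the filter level of 5.18 for CREBRF, and the lowest DDIT3 values lie near it, so background limits the size of these differences.

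TRIB3 encodes a pseudokinase, induced by ATF4 and CHOP, that feeds back on both and restrains AKT. In CCRF-CEM it stood at 8.48, 8.57, 8.59 and 10.96, in the order above, and in HPB-ALL at 9.59, 9.84, 9.42 and 11.28. The transduced CCRF-CEM arrays were close together (8.55 ± 0.06, SD, n = 3), and untransduced cells were 5.35-fold higher there and 3.17-fold higher in HPB-ALL, with a mean difference of -2.04 ± 0.18. ERO1B is an ER oxidase that recharges protein disulfide isomerase, so that new disulfide bonds can form. Its levels were 6.01, 5.56, 5.68 and 6.75 for CCRF-CEM, then 7.16, 6.57, 6.67 and 7.91 for HPB-ALL. Here too the untransduced array was highest, by 0.75 over the next in each line, and scramble was second (mean difference -1.06 ± 0.12).

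ASNS, which makes asparagine from aspartate, is an established ATF4 target, and its promoter stretch is shown above. In CCRF-CEM it stood at 6.14, 6.25, 6.47 and 7.43, and in HPB-ALL at 9.26, 9.12, 9.38 and 8.61. The untransduced array was thus the highest in CCRF-CEM and the lowest in HPB-ALL, without overlap in either, and transduced minus untransduced was -1.15 ± 0.19 and 0.64 ± 0.19. AARS1, which charges tRNA with alanine, stood at 10.28, 10.53, 10.67 and 11.26 in CCRF-CEM and at 11.22, 11.21, 11.23 and 11.31 in HPB-ALL. In HPB-ALL the 4 arrays spanned 0.10, so the difference lay in CCRF-CEM (-0.77 ± 0.19, against -0.09 ± 0.19).

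SESN2 encodes a leucine sensor that restrains the growth kinase complex mTORC1. Its levels were 7.38, 7.76, 7.76 and 9.11 for CCRF-CEM, then 9.61, 9.65, 9.60 and 9.60 for HPB-ALL. Untransduced CCRF-CEM cells were 2.79-fold above the transduced mean, while the HPB-ALL arrays did not separate. VLDLR, a lipoprotein receptor that ATF4 induces under ER stress, stood at 7.04, 6.76, 7.16 and 8.60 in CCRF-CEM and at 9.61, 9.31, 9.53 and 9.18 in HPB-ALL. As with ASNS, the untransduced array was highest in CCRF-CEM (3.06-fold) and lowest in HPB-ALL, where transduced minus untransduced was 0.30 ± 0.21.

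**Figure D2:**
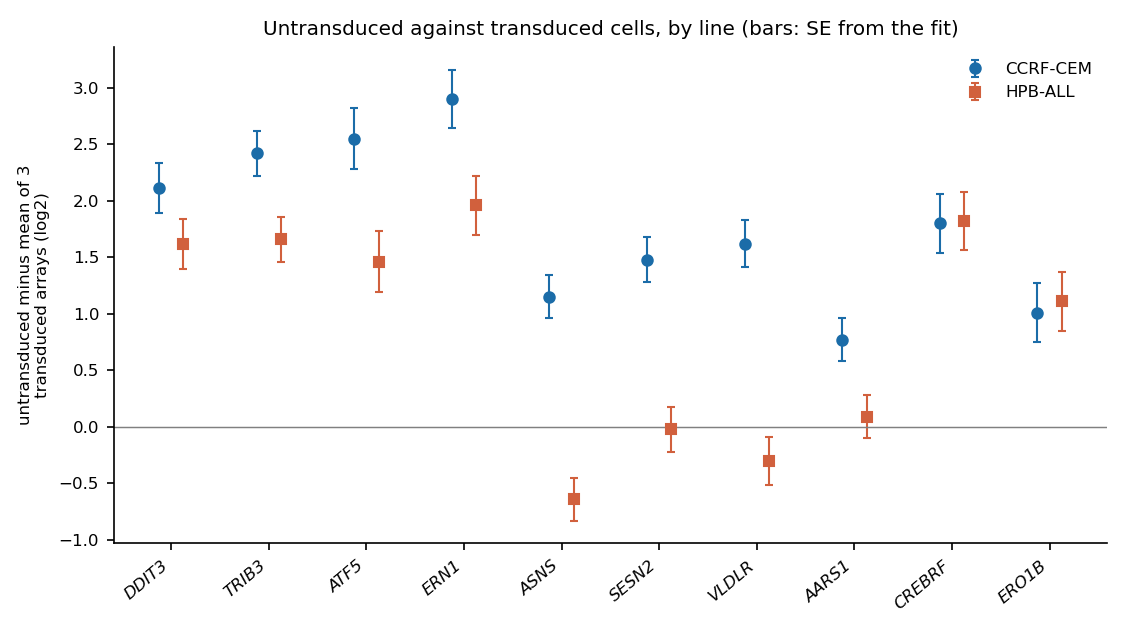
Untransduced level minus the mean of the 3 transduced arrays of the same line (log2, vertical axis) for the 10 genes in CCRF-CEM (circles) and HPB-ALL (squares); bars are standard errors from the limma fit with a mean for each line and transduction state. CREBRF and ERO1B lie at the same height in both lines (1.80 and 1.82; 1.01 and 1.11), whereas ASNS, SESN2, VLDLR and AARS1 are above 0.7 in CCRF-CEM and at or below 0.09 in HPB-ALL.

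Of the 10 members, 6 had a limma adjusted p under 0.05 as lower in transduced cells, where 5.33% of all tested genes did, and 0 as higher, where 5.82% did; since this contrast chose the members, nothing is read from that count. The median difference was -1.434 over the members and 0.032 over all tested genes. In both lines the untransduced array lay above all 3 transduced arrays for 7 members (the 6 and, by 0.08 in HPB-ALL, AARS1), where 16.7% of tested genes did, and below them for 0 members, where 20.5% did. In CCRF-CEM alone it lay above them for all 10 members, where 30.5% of tested genes did, and in HPB-ALL alone for 7, where 27.9% did. It lay at least 1 above them in both lines for DDIT3, TRIB3, ATF5, ERN1 and CREBRF, among 16 such genes in all (0.179%). Across alternative fits of this contrast, single arrays left out among them, transduced minus untransduced stayed negative for the 6. It ranged from -2.90 to -1.96 for ERN1 and from -1.21 to -0.75 for ERO1B. For ASNS it ranged from -1.15 to 0.64, for VLDLR from -1.62 to 0.30 and for SESN2 from -1.48 to 0.02. With scramble alone against untransduced cells, which leaves the TOX hairpins out of the contrast, the same 6 were called, among 95 of all 8930 tested genes. Nothing is read from that count either, since the untransduced arrays took part in the choice of members.

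The pathway lists hold 137 other genes, of which 74 were measured under their symbol here and 72 tested, so each list is described by its measured part. Of the 72, 9 fell in transduced relative to untransduced cells, 12.5% against 5.33% of all tested genes, and 3 rose, 4.17% against 5.82%. Together these are 16.7% against 11.2%, and the median was -0.038 against 0.032. KLHL24, an ATF4-responsive ubiquitin ligase adaptor, fell by 1.38 ± 0.15 on the log2 scale (limma adjusted p = 0.00334). Its levels were 7.40, 7.21, 7.23 and 8.75 for CCRF-CEM, then 7.79, 8.06, 7.55 and 9.08 for HPB-ALL, so the untransduced arrays did not overlap with the others. SEL1L, the scaffold of the ER ubiquitin ligase that retires misfolded proteins, fell by 1.08 ± 0.13 (adjusted p = 0.00384), from 10.40 to between 9.41 and 9.54 in CCRF-CEM and from 10.85 to between 9.47 and 9.74 in HPB-ALL. VEGFA, a growth factor gene induced by ATF4, fell by 1.45 ± 0.40 (adjusted p = 0.0483); it stood at 7.65 in untransduced CCRF-CEM cells and at 4.91 to 5.22 in the transduced ones, below or near the filter level, against 8.20 to 8.81 on all HPB-ALL arrays. The count of 12 passing genes moved with single arrays: leaving out untransduced cells gave 1 (CCRF-CEM) and 6 (HPB-ALL), leaving out CCRF-CEM scramble gave 5, either CCRF-CEM shTOX array or HPB-ALL shTOX-1 gave 7, and HPB-ALL shTOX-2 gave 5. With scramble alone against untransduced cells it was 3.

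**Figure D3:**
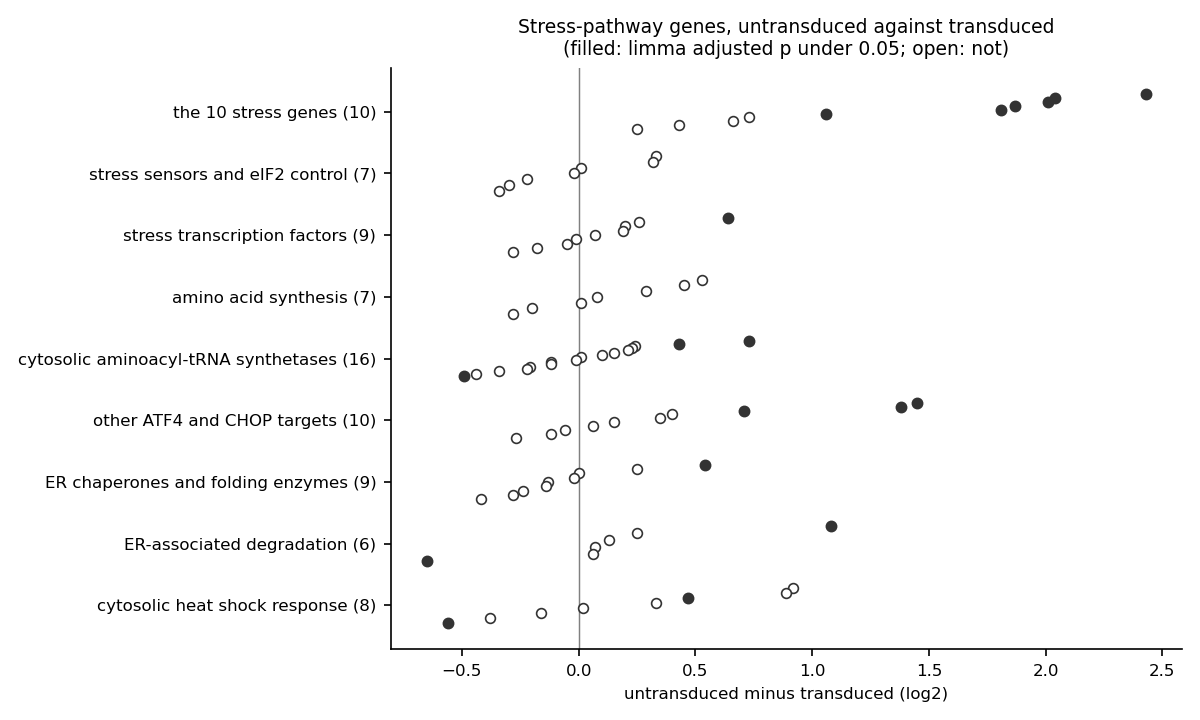
Untransduced minus transduced difference (log2, horizontal axis) for the 10 members and for the tested genes of 8 pathway lists, 1 point per gene, with the number of genes in brackets; filled points had a limma adjusted p under 0.05. The members lie between 0.25 and 2.43, whereas the lists spread on both sides of 0, with VEGFA (1.45), KLHL24 (1.38) and SEL1L (1.08) farthest to the right.

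The members, with the sensor gene ERN1 and the factors DDIT3 and ATF5 among them, are left out of these lists. Most other sensors and transcription factors of the pathways differed little at the RNA level. Of 7 tested sensors and regulators of eIF2, 0 passed in limma (2 with an unadjusted p under 0.05), with a median of 0.015; EIF2AK3, which encodes PERK, was at -0.33 ± 0.12 and ATF6 at -0.32 ± 0.13 for transduced minus untransduced. ATF4 mRNA, whose protein output is set by translation, stood at 10.85, 10.89, 10.93 and 10.95 in CCRF-CEM and at 11.23, 11.31, 11.30 and 11.21 in HPB-ALL. Its 4 arrays spanned 0.10 in CCRF-CEM and 0.11 in HPB-ALL, and the difference was 0.01 ± 0.11. XBP1, a substrate of IRE1, was at -0.20 ± 0.13; gene-level values do not show its splicing. Of 9 transcription factors, 1 fell, CREB3L2 (-0.64 ± 0.13, limma adjusted p = 0.0191), an ER-bound factor related to ATF6.

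The lists of targets differed in their counts. Of 16 other cytosolic aminoacyl-tRNA synthetases, which load amino acids onto tRNA, SARS1 (-0.73 ± 0.14) and LARS1 (-0.43 ± 0.12) fell and VARS1 (0.49 ± 0.14) rose, with limma adjusted p of 0.0147, 0.049 and 0.0469. The list's median was -0.001. Of 7 amino acid synthesis genes 0 passed in limma (2 with an unadjusted p under 0.05); the 2 with the smallest p were CTH, of cysteine synthesis (-0.53 ± 0.15), and PHGDH, the first enzyme of serine synthesis (0.28 ± 0.12). None of the 11 listed amino acid transporters was analysed here. Of 10 other ATF4 and CHOP targets 3 fell, KLHL24, VEGFA and MAP1LC3B, an autophagy gene (-0.71 ± 0.18, limma adjusted p = 0.0361), and 0 rose. These 3 genes are 30% of the list, against 5.33% of all tested genes that fell. VEGFA differed mainly in CCRF-CEM (-2.60 ± 0.24, against -0.29 ± 0.24 in HPB-ALL). Of the 10, 7 had negative differences and the median was -0.251. The pro-apoptotic BCL2L11 was at -0.40 ± 0.13 and the translation inhibitor EIF4EBP1 at 0.06 ± 0.12, and neither passed.

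Genes of ER-associated degradation and heat shock had calls in both directions, and those of ER folding had 1 call, as lower. Of 9 tested ER chaperones and folding enzymes, among 19 listed, 7 had positive differences, the median was 0.127, and 1 gene passed, SERP1, which stabilises membrane proteins during ER stress (-0.54 ± 0.14, limma adjusted p = 0.0405). ERO1A, the close relative of ERO1B, was at 0.14 ± 0.16. Of 6 genes of ER-associated degradation, 5 with negative differences and a median of -0.1, SEL1L fell and VCP, the ATPase that extracts proteins from the ER membrane, rose (0.65 ± 0.12, limma adjusted p = 0.0135). Of 8 cytosolic heat shock genes, 5 with negative differences and a median of -0.174, HSPB1 fell (-0.47 ± 0.13, limma adjusted p = 0.0447) and HSPA4 rose (0.56 ± 0.14, adjusted p = 0.0327). The near-identical HSPA1A and HSPA1B, whose probes may not separate them, were at -0.89 ± 0.30 and -0.92 ± 0.29 and did not pass.

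Whether the lines differed in the response was asked with a fit that holds a mean for each line and transduction state. The line difference (CCRF-CEM minus HPB-ALL in transduced minus untransduced) was -1.92 ± 0.29 for VLDLR, -1.79 ± 0.27 for ASNS, -1.50 ± 0.28 for SESN2 and -1.09 ± 0.38 for ATF5. It was -0.94 ± 0.37 for ERN1, -0.76 ± 0.28 for TRIB3, -0.68 ± 0.27 for AARS1 and -0.49 ± 0.31 for DDIT3, and near 0 for CREBRF (0.02 ± 0.37) and ERO1B (0.11 ± 0.37). Negative values mean a larger excess in untransduced CCRF-CEM cells. None of the 10 members passed in limma over all genes, where 0.0672% did (0.0112% with a positive and 0.056% with a negative difference); 7 had an unadjusted p under 0.05, against 425 of all 8930 genes. Of the 72 pathway genes 0 passed in limma as well, and 11 had an unadjusted p under 0.05, among them VEGFA (-2.32 ± 0.34, adjusted p = 0.0711). One pathway gene passed without the HPB-ALL shTOX-2 array.

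The lines also differed in the members' levels. CCRF-CEM minus HPB-ALL was -2.52 ± 0.28 for ASNS, -2.02 ± 0.30 for VLDLR and -1.61 ± 0.24 for SESN2, and for these 3 genes all 4 CCRF-CEM arrays lay below all 4 HPB-ALL arrays, as did 14.2% of tested genes; the reverse order held for 0 members and 12.8% of tested genes. ERO1B (-1.08 ± 0.10), TRIB3 (-0.89 ± 0.16), ATF5 (-0.87 ± 0.21), DDIT3 (-0.64 ± 0.12) and AARS1 (-0.56 ± 0.14) were lower in CCRF-CEM on average, with overlap between the lines because of the untransduced arrays. CREBRF (-0.02 ± 0.13) and ERN1 (0.20 ± 0.17) did not separate the lines. In limma 8 of the 10 members were called as lower in CCRF-CEM, where 17.6% of all tested genes were, and 0 as higher, where 14.9% were (32.5% in all). The members were chosen by values of these same arrays, so nothing is read from that count.

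The same direction was seen in the pathway lists, for which the line contrast is tested, though these too were chosen with earlier results known. Of 72 genes 28 were lower and 4 higher in CCRF-CEM, that is 38.9% lower against 17.6% of all tested genes, with a median of -0.191 against -0.006. Of the 10 other ATF4 and CHOP targets 8 were lower, among them VEGFA (-2.90 ± 0.35), SQSTM1, an autophagy receptor (-1.05 ± 0.12), and DDIT4, an inhibitor of mTORC1 (-1.04 ± 0.25). Of the 7 amino acid synthesis genes 4 were lower, CTH (-2.19 ± 0.13), PSAT1 (-0.99 ± 0.12), PYCR1 (-0.90 ± 0.13) and SHMT2 (-0.54 ± 0.12), and CBS was higher (0.69 ± 0.20). CTH on the 4 CCRF-CEM arrays and CBS on 1 HPB-ALL array lay below the filter level, which limits these sizes. Of the 16 aminoacyl-tRNA synthetases 6 were lower, led by CARS1 and MARS1 (-0.59 each), and KARS1 was higher (0.38 ± 0.10). Of the 9 transcription factors ATF3 (-1.13 ± 0.22), CREB3L2 (-0.67 ± 0.12), XBP1 (-0.45 ± 0.11) and ATF4 (-0.36 ± 0.10) were lower. For the genes named here with a direction, the limma adjusted p was between 2e-06 (CTH) and 0.027 (CBS).

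The study's own question is what lowered TOX does, and scramble is the control that shares transduction and selection. Relative to the scramble array of its line, ERO1B in CCRF-CEM was at -0.45 (shTOX-1) and -0.33 (shTOX-2), and in HPB-ALL at -0.59 and -0.49, and CREBRF at -0.49, -0.35, -0.08 and -0.55 in the same order. DDIT3 was at 0.29, 0.30, 0.43 and 0.36, and ERN1 at 0.59, 0.62, 0.38 and 0.22. All 4 shTOX arrays thus lay below scramble for 2 members, as they did for 9.69% of tested genes, and above it for 2, as they did for 11.9%. The mean differences were -0.46 ± 0.12 for ERO1B, -0.37 ± 0.15 for CREBRF, 0.34 ± 0.15 for DDIT3 and 0.45 ± 0.21 for ERN1, all smaller than their differences from untransduced cells. TRIB3 (0.07 ± 0.19), ATF5 (0.29 ± 0.26), ASNS (0.10 ± 0.34), SESN2 (0.20 ± 0.29), VLDLR (-0.13 ± 0.36) and AARS1 (0.16 ± 0.18) had differences about as large as their standard errors, or smaller. The fit behind these errors also holds the untransduced arrays, so they do not measure the spread of shTOX and scramble arrays alone. SESN2 was at 0.39, 0.39, 0.04 and -0.01, and AARS1 at 0.26, 0.39, -0.01 and 0.01, closer within a line than between the lines. Within a line, shTOX-2 minus shTOX-1 reached -0.42 for TRIB3 and ATF5, 0.39 for VLDLR and 0.25 for ASNS.

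**Figure D4:**
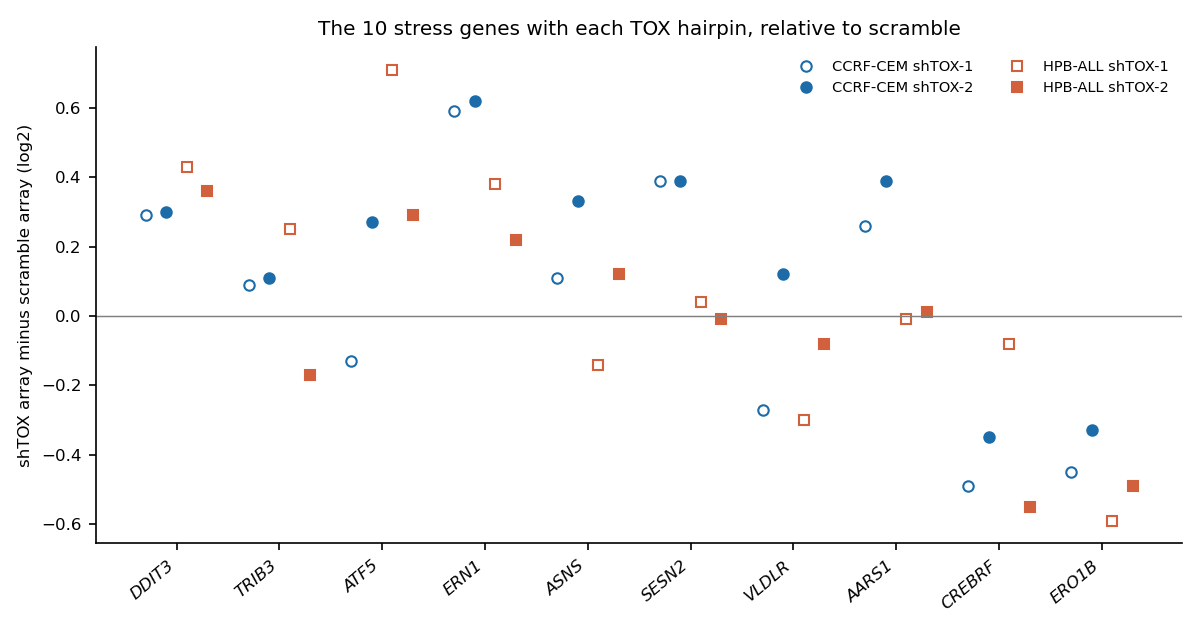
Log2 level of each shTOX array minus the scramble array of the same line (vertical axis) for the 10 genes, with open symbols for shTOX-1, filled symbols for shTOX-2, circles for CCRF-CEM and squares for HPB-ALL. The 4 arrays lie on the same side of 0 for DDIT3 and ERN1 (above) and for CREBRF and ERO1B (below), and no value exceeds 0.71 in size.

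In limma 0 members and 0 of 72 pathway genes passed against scramble, as did 0.0% of all tested genes; unadjusted p under 0.05 was found for 3 members, 4 pathway genes and 459 of all genes. The 4 pathway genes were EIF4EBP1 (0.38 ± 0.12), HSPH1 (0.40 ± 0.13), DERL2 (0.40 ± 0.15) and CREB3L2 (0.35 ± 0.14). With scramble and untransduced arrays together as controls, the members' differences ranged from -1.15 ± 0.37 (CREBRF) and -0.84 ± 0.20 (ERO1B) to -0.06 ± 0.28 (ASNS), all negative, and 0 members and 0 pathway genes passed in limma (2 and 10 with an unadjusted p under 0.05; 0.0% of all genes passed). This comparison shares its shTOX and scramble arrays with the one before and takes in the untransduced arrays, and against scramble alone 7 of the 10 members had positive differences. The line difference in this contrast had 0 passing members and pathway genes (0 and 1 with an unadjusted p under 0.05; 0.0% of all genes passed); 1 pathway gene passed without the CCRF-CEM scramble array.

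Between the hairpins, shTOX-2 minus shTOX-1 ranged from -0.20 ± 0.23 (TRIB3) to 0.31 ± 0.44 (VLDLR) over the members, with a median of -0.018, although shTOX-2 left less TOX in both lines. In limma 0 members and 0 pathway genes passed (0 and 2 with an unadjusted p under 0.05), as did 0.0% of all genes. With 1 array of each hairpin per line, differences of this size could not be separated from the spread between arrays.

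The members were also compared with one another by Pearson's r with DDIT3 over the 8 arrays, each gene centred on its line mean; the arrays share lines and controls, and r is a description. It was 0.995 for ERN1, 0.983 for TRIB3, 0.978 for ATF5 and 0.919 for CREBRF, then 0.825 for ERO1B, 0.819 for AARS1, 0.777 for SESN2, 0.618 for VLDLR and 0.389 for ASNS. These values are set mostly by the untransduced arrays: over the 6 transduced arrays r was 0.89 for ERN1, but -0.67 for CREBRF and -0.99 for ERO1B. Over the same 6 arrays r was 0.69 for ATF5, 0.63 for SESN2, 0.57 for AARS1, 0.34 for TRIB3, 0.27 for ASNS and -0.48 for VLDLR. ERO1B was thus high with DDIT3 in untransduced cells. Among the transduced arrays of each line, the single scramble array had the highest ERO1B and the lowest DDIT3, so the r of -0.99 rests largely on it. The genes outside the members with the highest r over the 8 arrays were ADPRM and GDF9 (0.995 each), SRP14-DT and CRIPT (0.989 each) and MEF2A (0.985). Their excess in untransduced cells was smaller than that of DDIT3; MEF2A, a transcription factor, stood at 7.87, 7.89, 7.89 and 8.60 in CCRF-CEM and at 7.48, 7.48, 7.45 and 8.0 in HPB-ALL.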

How the data were processed

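The authors deposited 1 table of log2 intensities for 53617 probe sets on 8 arrays; that the unit is log2 was judged from the range of the values, and how probes were corrected, summarized and normalized, and with which software, is not given in the sources used here. Per the labels' protocols, biotinylated cRNA was made from total RNA with the GeneChip WT Plus kit. The annotation given here named 16098 probe sets with a single symbol, all matched to the reference by Entrez identifier; 37519 had none. Where several probe sets shared a gene (779 genes), the brightest on average stood for it. Array medians are nearly equal, so a shift of all genes cannot be read, and the number of arrays limits the precision. No build is named for the table, so gene positions are not given.

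Differences came from linear models in limma 3.58.1 under R 4.3.3, with eBayes moderation and no trend, on all 8 arrays, with Benjamini-Hochberg adjustment over 8930 genes and a threshold of 0.05; values after ± are standard errors unless SD is stated. Line was a term, with treatment as shTOX, scramble or untransduced; transduced means the 4 shTOX and 2 scramble arrays, each with the same weight. The comparison with both controls used shTOX against control, line differences used a mean per line and state, and the hairpins used all constructs as levels. The code was tested on simulated data. The members and lists were chosen with earlier results of these data known. Named pathway genes are, per list and comparison, up to 4 called genes by size, or else the 2 with the smallest p; others named are EIF4EBP1, BCL2L11, ERO1A, HSPA1A, HSPA1B, DDIT4, ATF4, ATF6, XBP1, EIF2AK3 and the 4 against scramble, chosen after their values were seen. Motifs were matched exactly in RefSeq promoter windows. The hairpin numbers name constructs, not shared cultures.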

Additional observations from a re-analysis of the deposited data

Results flagged for a closer look

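Among the 4 arrays of a line, the untransduced CCRF-CEM array stood apart by Dixon's 95% criterion (its gap to the nearest array over the whole range) for 9 of 24 genes looked at in both lines. The 24 were the 10 members, the 12 pathway genes that passed between transduced and untransduced cells, ATF4 and TOX. Chance flags about 1 in 20 groups of 4, but that rate does not apply to genes picked by this same difference, and all 9 are such genes, so the values are a description. The ratio of gap to range was 0.955 for TRIB3 (level 10.96), 0.871 for DDIT3 (7.92), 0.855 for ATF5 (10.72), 0.887 for VEGFA (7.65), 0.873 for KLHL24 (8.75), 0.866 for SEL1L (10.40) and 0.925 for HSPB1 (9.60), where that array was highest. It was 0.974 for HSPA4 (9.73) and 0.884 for VARS1 (7.87), where it was lowest. No HPB-ALL array met this measure for these genes.

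ASNS and VLDLR moved in opposite directions in the lines: every transduced array lay below the untransduced one in CCRF-CEM and above it in HPB-ALL. The differences between the lines, -1.79 ± 0.27 for ASNS and -1.92 ± 0.29 for VLDLR in the limma fit, are given as a description of members.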

How the results depend on the processing

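The 12 passing pathway genes between transduced and untransduced cells became 6 with no filter on dim genes, 0 with no line term and 3 with scramble alone as the transduced cells; leaving out single arrays gave 1 to 9. Leaving out an array lowers the number of arrays, and leaving out the filter raises the number of genes tested. Without the line term both stayed the same. The cause of these changes was not tested. Over all genes, this comparison called 996, but 2 with no line term, 95 with scramble alone, and 14, 325, 650 and 659 without CCRF-CEM untransduced, HPB-ALL untransduced, CCRF-CEM shTOX-2 and HPB-ALL shTOX-2. The 6 called members were called in every setting in which they passed the filter, except without the line term (ERN1 and CREBRF called) and without the CCRF-CEM untransduced array (ATF5 and ERO1B lost); a filter at the 60th percentile left DDIT3, CREBRF and ERO1B untested. Leaving out single arrays gave 0 to 1 passing pathway genes for each line difference, and 23 to 26 between the lines, against 32. The line difference in transduced minus untransduced could not be fitted without an untransduced array; elsewhere a lone array is assumed to vary like the others.

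Signs reversed for members without the CCRF-CEM untransduced array, in transduced minus untransduced: ASNS (-0.25 to 0.64), VLDLR (-0.66 to 0.30) and SESN2 (-0.73 to 0.02). Among pathway genes that had not passed, signs reversed for ATF3 against scramble (-0.20 without CCRF-CEM scramble; single arrays left out gave -0.20 to 0.83), SEL1L against both controls (0.16 without both untransduced arrays, an alternative chosen after seeing the data, as was scramble or shTOX alone against untransduced), the line difference in shTOX against both controls without CCRF-CEM untransduced for PSAT1 (0.016; range -0.57 to 0.016), VEGFA (0.18; -2.26 to 0.18) and HSPA1B (0.28; -1.73 to 0.28), and KLHL24 between hairpins (0.011 without HPB-ALL shTOX-1; -0.49 to 0.011).

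In the replicate block, which fits each construct once across the lines, 8 pathway genes passed between transduced and untransduced cells: VARS1, LARS1, VEGFA, MAP1LC3B and HSPB1 were lost and CTH, of amino acid synthesis, was gained. Between the lines 30 passed, and 0 in the other comparisons. Over all genes, the block called 16 for shTOX against both controls, against 0 without it, and 2 of them were members, CREBRF (-1.15 ± 0.12) and ERO1B (-0.84 ± 0.10). Those controls include the untransduced arrays, whose difference is counted as used in the choice of members, so these 2 calls are a description. Against scramble alone, without the block, CREBRF was at -0.37 ± 0.15 and ERO1B at -0.46 ± 0.12. With the block, 0 members passed against scramble. The hairpin differences of the lines correlated at r = 0.225 over 8930 genes; the numbers name hairpins and do not pair cultures.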

Other observations

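Besides the 5 members, 11 genes lay at least 1 above all transduced arrays of their line in untransduced cells of both lines; the choice rests on that value, so it is a description. CLGN, which encodes an ER chaperone related to calnexin, stood at 5.61, 5.60, 4.74 and 6.66 in CCRF-CEM, in the order scramble, shTOX-1, shTOX-2 and untransduced, and at 7.10, 7.22, 6.97 and 8.30 in HPB-ALL. It is the one gene of ER folding among them. The transcription factor ZBTB20 stood at 5.73, 5.21, 5.85 and 7.35 in CCRF-CEM and at 5.90, 5.72, 5.62 and 7.09 in HPB-ALL. HBEGF, a growth factor, reached 10.46 in untransduced CCRF-CEM cells against 5.54 to 5.87 in the transduced ones, and 6.79 against 4.85 to 4.86 in HPB-ALL.

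Other stress genes had an excess in untransduced CCRF-CEM cells without one in HPB-ALL, as ASNS and SESN2 did. HSPA1A stood at 11.47 there against 9.41 to 9.92 with a hairpin or scramble, and at 10.96 within 10.69 to 11.10 in HPB-ALL. DDIT4 stood at 9.88 against 8.53 to 9.07 in CCRF-CEM, and at 9.83 below 9.97 to 10.55 in HPB-ALL. The line differences, -1.68 ± 0.35 for HSPA1A and -1.45 ± 0.38 for DDIT4, had limma adjusted p of 0.282 and 0.493.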
